A study of Homo sapiens with 6 samples.

Results

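The genes described here are the core of the Notch pathway: the receptors NOTCH1, NOTCH2, NOTCH3 and NOTCH4, the ligands JAG1, JAG2 and DLL1, and the target genes HES1, HEY1 and HEY2. They were chosen by name, and all probe sets with one of these names as their only gene symbol were taken, which gave 27 of the 54613 probe sets tested for 10 of 19775 genes. The cells were MDA-MB-231, an invasive triple-negative breast cancer line. In the shATAD3A group the cells carried a stable short hairpin against ATAD3A, an ATPase of the inner mitochondrial membrane, and in the shGFP group a hairpin against GFP, with 3 arrays each. The hairpins of both groups came in the lentiviral vector pLKO.1, cells that took it up were kept by 2 weeks of puromycin at 1.0 µg/ml, and RNA was taken at passage 2. How many hairpins against ATAD3A were used, and whether replicates were separate cultures, is not stated in the labels, so p-values here reflect how far these 6 arrays spread, and that spread may be only technical. A bulk array cannot tell fewer cells of a kind apart from less RNA in each cell.

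Notch receptors sit in the plasma membrane and bind Jagged and Delta-like ligands on neighbouring cells. Binding leads to cuts by ADAM proteases and then by gamma-secretase, which frees the intracellular domain of the receptor. This domain enters the nucleus, joins the DNA-binding protein RBPJ and a Mastermind coactivator (MAML1 to MAML3), and turns on targets such as the HES and HEY genes, which encode transcriptional repressors. In the breast the pathway takes part in choices between basal and luminal cell fates, and it is studied in triple-negative cancer for its part in growth and invasion.

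Values are log2 expression values, 1 per probe set and array, and a change is shATAD3A minus shGFP. An error is given as the SD over n = 3 arrays of a group, or as the SE from the limma fit. The values form a low mode, where probe sets hold little signal, and a broad upper range. The lowest point between them, 4.8, is used as the upper edge of the low mode and was set after seeing the data, and a fold is imprecise where either group lies in that mode. Levels are not compared between probe sets, since their probes differ in brightness. ATAD3A read 7.41, 7.03 and 7.39 on the shATAD3A arrays, against 7.73, 7.78 and 7.80 on the shGFP arrays, a change of -0.49 ± 0.107 (SE; limma adjusted p = 0.022 over all probe sets). That call was lost without any 1 of the shGFP arrays (adjusted p = 0.0596, 0.0687 and 0.0748 without replicates 1, 2 and 3). Line markers VIM, CD44, EGFR, KRT18, KRT8 and AXL lay far above the low mode on every array, and ESR1 and PGR lay in it. KRT8 and KRT18 changed by 1.42 and 1 on their brightest probe sets (limma adjusted p = 8.869e-06 and 1.049e-04). CD44 and AXL changed by -0.34 and -0.26 (limma adjusted p = 4.509e-04 and 0.00203), while VIM and EGFR did not pass. Other CD44 probe sets above the low mode ran from -1.01 to 0.89, with 8 called down and 1 called up. Those of AXL (0.05), VIM (-0.44) and EGFR (-0.12 to -0.02) were not called. ERBB2 was above the low mode, at 8.19 to 8.41 in shATAD3A and 7.73 to 7.91 in shGFP cells. Of the markers of other cell types measured, 5 of 6 endothelial, 4 of 4 leukocyte, 3 of 4 smooth muscle and pericyte and 4 of 5 fibroblast genes lay in the low mode in both groups, among them CDH5, VWF, PTPRC, MYH11 and DCN. The exceptions were PECAM1 (4.85 to 5.56 in shATAD3A, 6.22 to 6.82 in shGFP), RGS5 (6.26 to 6.46 in shATAD3A, 5.50 to 5.77 in shGFP) and COL1A1 (9.32 to 9.39 in shATAD3A, 8.24 to 8.50 in shGFP). On another probe set above the low mode, their changes were -0.66, 1.06 and -0.37. Among the leukocyte genes, CD14 changed most, by -1.6 within the low mode. The log2 of the summed signal ran from 5.93 to 6.35 in shATAD3A and from 6.81 to 7.24 in shGFP cells for the endothelial list. It ran from 4.87 to 4.95 against 5.30 to 5.55 for the leukocyte list, from 6.53 to 6.70 against 5.93 to 6.13 for the smooth muscle and pericyte list, and from 9.40 to 9.48 against 8.40 to 8.64 for the fibroblast list, with shATAD3A given before shGFP. In such sums the brightest gene weighs most, which was PECAM1, RGS5 and COL1A1 in the endothelial, smooth muscle and pericyte, and fibroblast lists. The sums therefore largely repeat the values of these genes. The part of these markers in the Notch results was not tested.

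The Notch genes moved both ways in the knockdown cells. The target HES1 rose by 3.50 on the log2 scale (11.3-fold), the ligand JAG2 by 1.44 (2.72-fold) and the target HEY1 by 0.52 (1.43-fold), each on its brightest probe set. The shGFP means of JAG2 and HEY1 on these probe sets lay in the low mode, so their folds are imprecise. The receptor NOTCH2 fell by 0.58, to 0.668 times the shGFP level, and the ligand JAG1 fell by 0.30, to 0.812 times it. NOTCH3, NOTCH4, DLL1 and HEY2 lay in the low mode in both groups. By limma with Benjamini-Hochberg adjustment over all probe sets, 5 of the 27 member probe sets rose and 7 fell, while 15 missed the threshold of 0.05. Over all 54613 probe sets, 12.0% rose, 10.5% fell and 22.4% changed in either direction, and of those with a mean above the low mode 28.2% rose, 24.1% fell and 52.3% changed in either direction. The groups did not overlap for 15 of the 27 member probe sets, against 33.2% of all probe sets and 67.2% of those with a mean above the low mode. Of the 12 member probe sets with a mean above the low mode, 10 were called and 11 did not overlap; they were kept on their own values, so nothing is read from these counts. With 1 probe set a gene, 3 of the 10 members rose and 3 fell, where 19.7% of all 19775 genes rose and 13.9% fell, 33.6% together. With each array centred on the median of its genes, 3 members rose and 6 fell, under a setting in which 3196 of all 19775 genes rose and 9588 fell. Since up to 6 probe sets read the same gene, these counts are not counts of independent measurements.

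**Figure D1:**
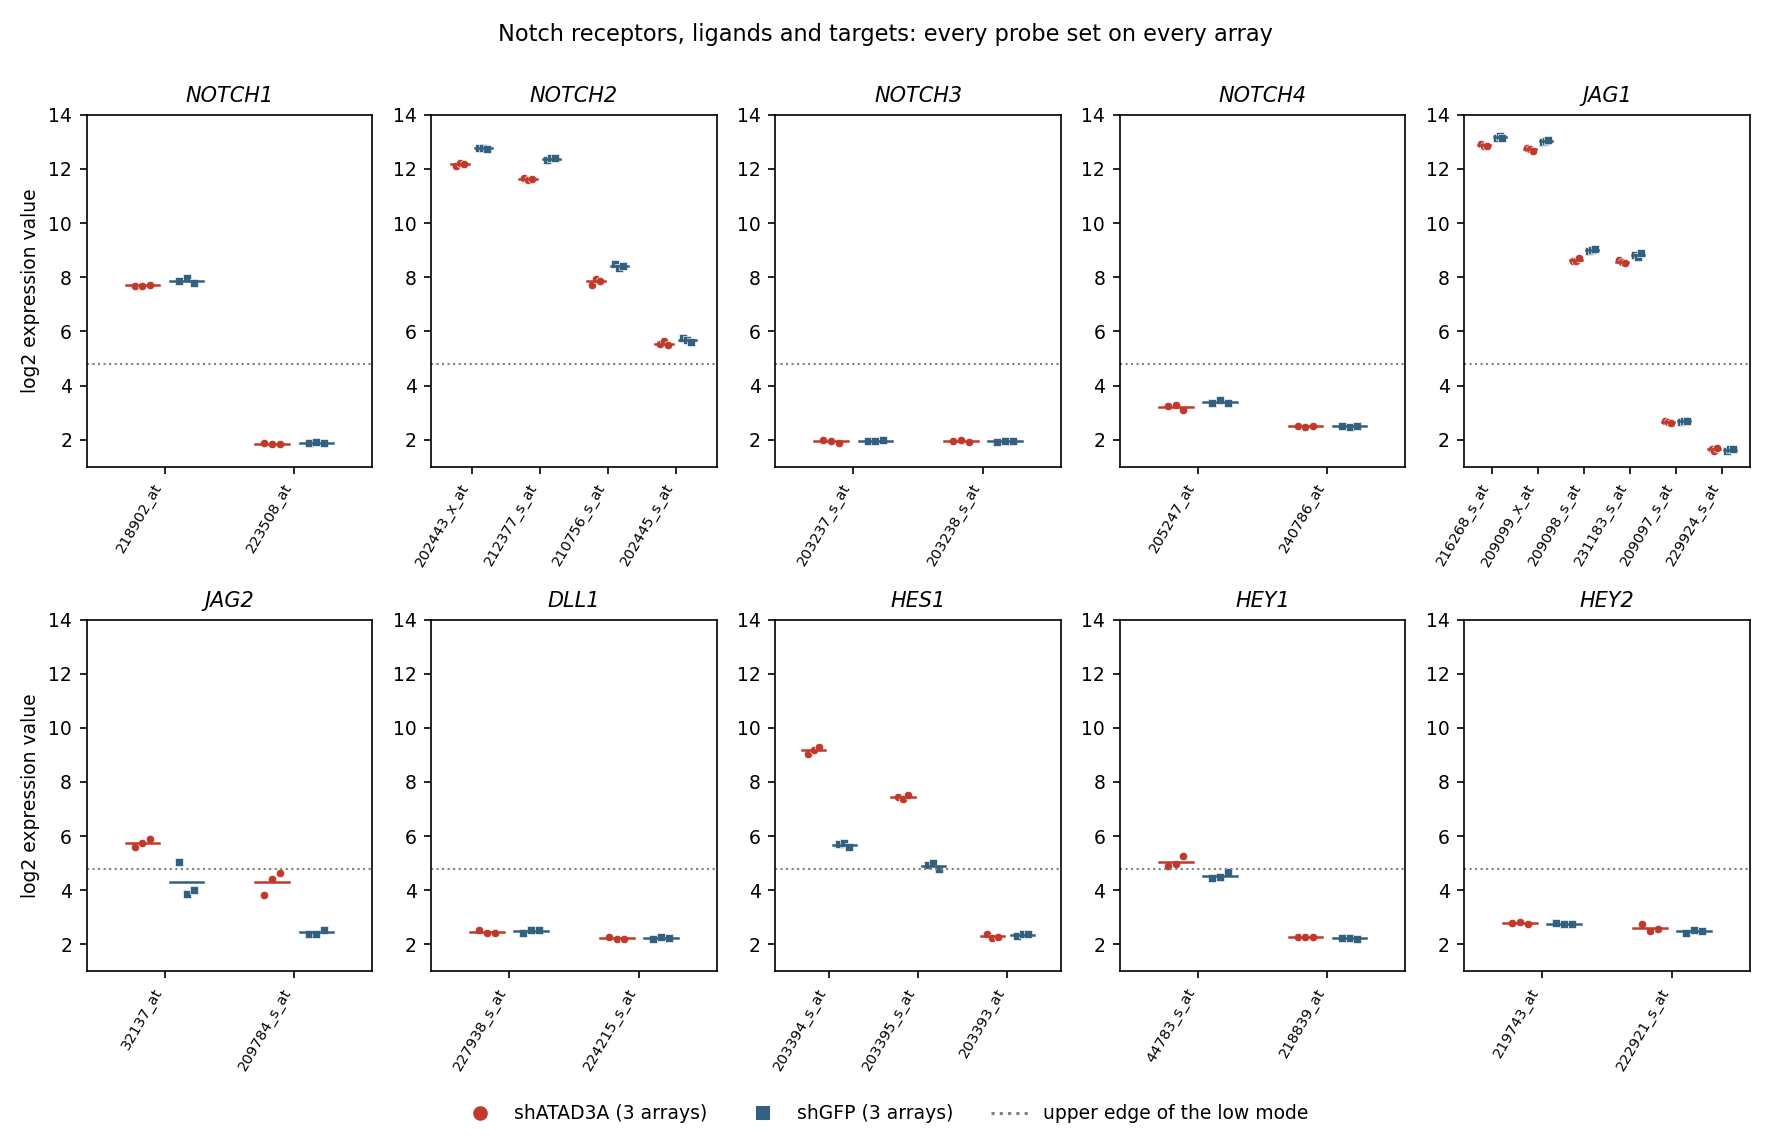
Log2 expression value (vertical axis) of every member probe set (horizontal axis) on every array, by gene, with shATAD3A arrays as red circles and shGFP arrays as blue squares; bars are group means of 3 arrays and the dotted line is the upper edge of the low mode, 4.8. The shATAD3A points of 2 HES1 probe sets and both JAG2 probe sets stand above the shGFP points, and those of 3 NOTCH2 and 4 JAG1 probe sets stand below.

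Among the receptors, NOTCH2 was lower in the knockdown cells. NOTCH2, a widely expressed receptor, read 12.12, 12.22 and 12.19 on the 3 shATAD3A arrays, against 12.77, 12.77 and 12.73 on the 3 shGFP arrays, on its brightest probe set. All shATAD3A arrays were below all shGFP arrays, and the fall of 0.58 was many times the spread within either group (change -0.58 ± 0.034, SE; limma adjusted p = 1.422e-04). A second probe set read 11.67, 11.58 and 11.63 in shATAD3A and 12.34, 12.40 and 12.40 in shGFP cells, a change of -0.75 ± 0.035 (SE; limma adjusted p = 6.578e-05). The third read 7.73, 7.93 and 7.88 in shATAD3A and 8.49, 8.33 and 8.43 in shGFP cells, a change of -0.57 ± 0.069 (SE; limma adjusted p = 0.00213). These 3 probe sets all fell, without overlap of the groups. The dimmest read 5.52, 5.63 and 5.51 in shATAD3A and 5.74, 5.70 and 5.60 in shGFP cells; its groups overlapped and its change of -0.13 did not pass (limma adjusted p = 0.177). A further probe set that the annotation gives to both NOTCH2 and its partial copies of the NOTCH2NL family averaged 9.76 in shATAD3A and 9.96 in shGFP cells, a change of -0.20 (limma adjusted p = 0.188). Signal shared with these copies cannot be told apart from NOTCH2 in probe sets whose probes match both.

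NOTCH1, the receptor most often altered by mutation in T cell leukaemia, read 7.69, 7.69 and 7.73 in shATAD3A cells, against 7.85, 7.96 and 7.79 in shGFP cells. The groups did not overlap, but the difference was small, at -0.16 with a 95% interval from -0.28 to -0.04. It missed the threshold over all probe sets (limma adjusted p = 0.0681) and passed it over genes (limma adjusted p = 0.047). Over genes, the change was -0.27 after quantile normalization and with centred arrays, and -0.10 as the mean of both NOTCH1 probe sets (adjusted p = 0.00764, 0.00451 and 0.0573). Centring over genes shifted the median of all genes by -0.103. Over all probe sets, quantile normalization gave -0.19 and centred arrays gave -0.16 (limma adjusted p = 0.0468 and 0.132). The call over genes was lost without any 1 array other than shGFP replicate 3, with adjusted p between 0.0863 and 0.122. It was also lost with array weights, an intensity trend in the variance prior and the replicate block (limma adjusted p = 0.0733, 0.122 and 0.11). The other NOTCH1 probe set lay at the bottom of the scale, at 1.86 ± 0.026 in shATAD3A and 1.89 ± 0.012 in shGFP cells (SD, n = 3). NOTCH3, a receptor best known from vascular smooth muscle, lay there as well, with 1.94 ± 0.053 in shATAD3A and 1.97 ± 0.012 in shGFP cells on its brighter probe set (SD, n = 3). NOTCH4, known from endothelium, read 3.26, 3.29 and 3.10 in shATAD3A and 3.36, 3.47 and 3.37 in shGFP cells. Its groups did not overlap, yet the values stayed in the low mode and the change of -0.18 did not pass (limma adjusted p = 0.0947).

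Of the ligands, JAG1 fell and JAG2 rose. JAG1, a ligand made by many epithelial and endothelial cells, read 12.92, 12.85 and 12.85 on the shATAD3A arrays, against 13.15, 13.21 and 13.16 on the shGFP arrays, on its brightest probe set. Its change was -0.30 ± 0.034 (SE; limma adjusted p = 0.00165). Another 3 of its probe sets also fell, with changes of -0.31, -0.37 and -0.24, in falling order of brightness, and limma adjusted p of 0.00275, 0.00162 and 0.0145. In each of these 4 probe sets every shATAD3A array was below every shGFP array. The call of the dimmest of these was lost without shATAD3A replicate 2 (adjusted p = 0.0516), without shATAD3A replicate 3 (adjusted p = 0.0561) and without shGFP replicate 1 (adjusted p = 0.0517). The 2 remaining JAG1 probe sets lay in the low mode, with changes of -0.02 and 0.01.

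JAG2, the other Jagged ligand, read 5.58, 5.76 and 5.89 in shATAD3A cells, against 5.03, 3.85 and 4.02 in shGFP cells. The groups did not overlap, and shGFP replicate 1 stood about a log2 unit above the other shGFP arrays. The mean of the shGFP arrays, 4.3, lay in the low mode. The rise was 1.44 ± 0.319 (SE; limma adjusted p = 0.0238). Leaving out 1 array lost the call in all cases but shGFP replicate 1, without which the change was 1.81. Without shATAD3A replicates 1, 2 and 3 the adjusted p was 0.0563, 0.0726 and 0.0852, and without shGFP replicates 2 and 3 it was 0.0605 and 0.0798. The second JAG2 probe set read 3.83, 4.43 and 4.64 in shATAD3A and 2.39, 2.40 and 2.54 in shGFP cells. Every shATAD3A array was above every shGFP array, the rise was 1.86 ± 0.207 (SE; limma adjusted p = 0.00155), and the change stayed between 1.69 and 2.09 with any 1 array left out, although all of its values lay in the low mode. DLL1, a Delta-like ligand, was in the low mode on both of its probe sets, with 2.45 ± 0.058 in shATAD3A and 2.49 ± 0.059 in shGFP cells on the brighter (SD, n = 3; limma adjusted p = 0.739).

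HES1 moved farthest of the 10 genes. HES1, a basic helix-loop-helix repressor that is switched on quickly by Notch and also represses its own gene, read 9.03, 9.19 and 9.29 on the shATAD3A arrays, against 5.70, 5.74 and 5.59 on the shGFP arrays, on its brightest probe set. The groups lay over 3 log2 units apart, with a within-group SD of 0.13 in shATAD3A and 0.077 in shGFP cells. The rise was 3.50 ± 0.076 (SE; limma adjusted p = 7.491e-06), with a 95% interval from 3.31 to 3.68. The next HES1 probe set read 7.46, 7.38 and 7.52 in shATAD3A and 4.94, 4.99 and 4.80 in shGFP cells, a rise of 2.54 ± 0.064 (SE; limma adjusted p = 1.115e-05). Both calls held under every alternative tried that kept the probe set. The third lay in the low mode with 2.31 ± 0.059 in shATAD3A and 2.36 ± 0.040 in shGFP cells (SD, n = 3), although the annotation gives it the same source sequence as the brightest. Of all genes, 39 rose by at least as much as HES1, which is 0.197% with HES1 counted. The 3 genes whose centred profile over the 6 arrays lay nearest to that of HES1 were ZNF114, TMEM139 and PLCG2. Their Euclidean distances were 0.274, 0.293 and 0.368 log2 units and their changes 3.31, 3.35 and 3.37. Profiles were centred but not scaled, so a change of similar size is built into this choice. The shGFP means of TMEM139 and PLCG2, 2.66 and 3.59, lay in the low mode.

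HEY1, a repressor of the related HEY family, read 4.90, 4.98 and 5.26 in shATAD3A cells, against 4.45, 4.49 and 4.66 in shGFP cells. These values straddle the upper edge of the low mode. The groups did not overlap and the rise was 0.52 ± 0.107 (SE; limma adjusted p = 0.019), but the call was lost without shGFP replicate 1 (adjusted p = 0.0685) and without shGFP replicate 2 (adjusted p = 0.0646). Its other probe set lay at 2.27 ± 0.0088 in shATAD3A and 2.23 ± 0.033 in shGFP cells (SD, n = 3). HEY2, known above all from heart and arteries, lay in the low mode on both probe sets, at 2.79 ± 0.023 in shATAD3A and 2.76 ± 0.018 in shGFP cells on the brighter (SD, n = 3). In all, 13 member probe sets that were not called lay in the low mode in both groups. They ranged from 1.60 to 3.47 over all arrays, with changes between -0.18 and 0.13 and limma adjusted p between 0.0947 and 0.951.

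**Figure D2:**
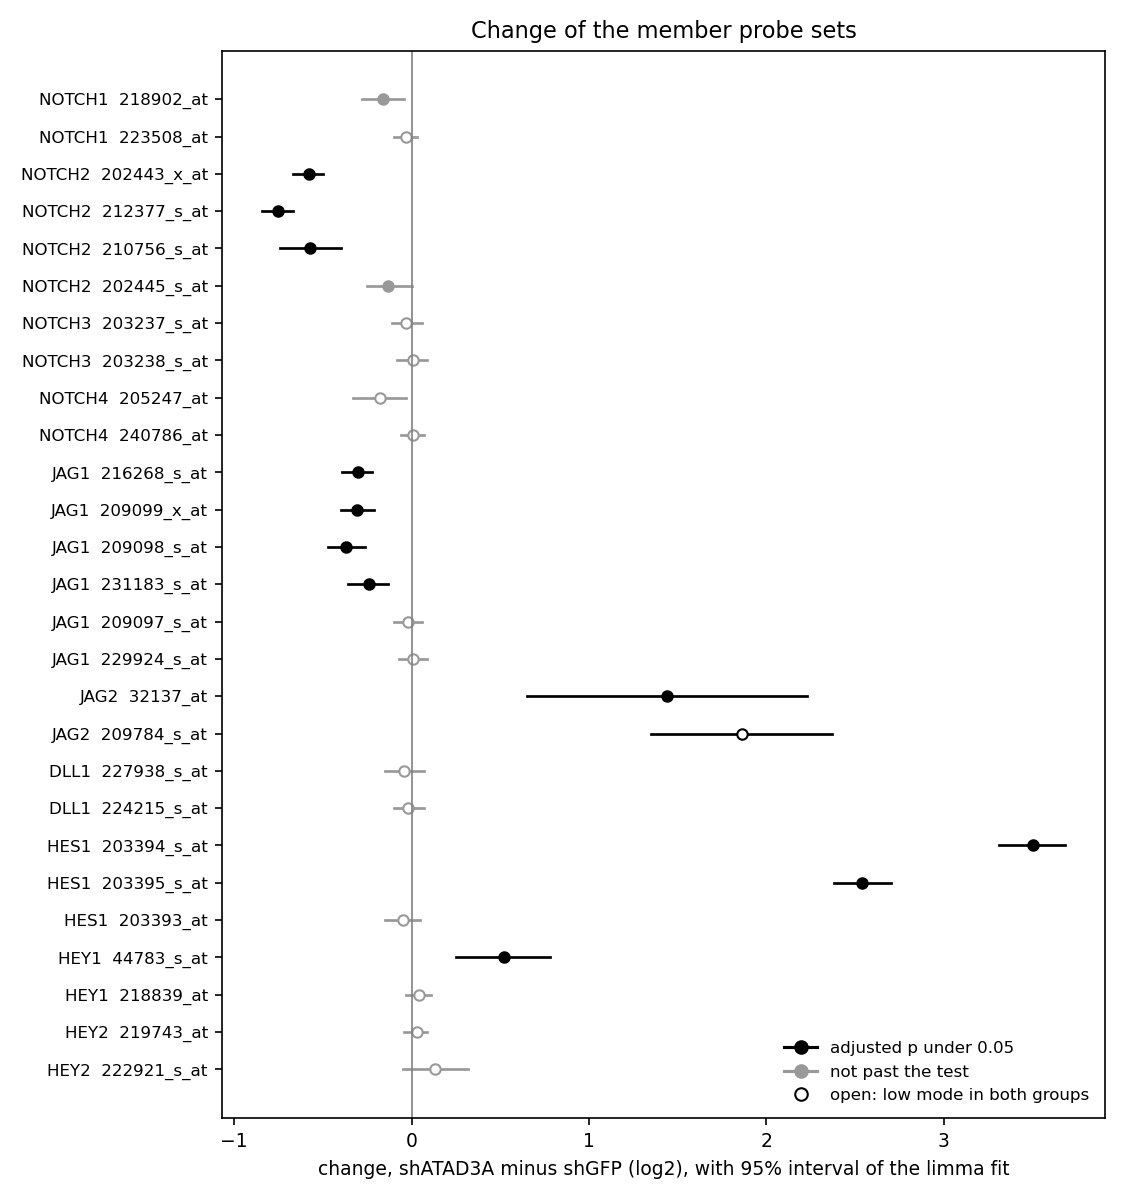
Change of each member probe set (vertical axis), shATAD3A minus shGFP on the log2 scale (horizontal axis), with the 95% interval of the limma fit over 3 arrays a group; black marks an adjusted p under 0.05 and open circles mark probe sets in the low mode in both groups. The 5 black points right of 0 belong to JAG2, HES1 and HEY1 and the 7 left of 0 to NOTCH2 and JAG1.

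**Figure D3:**
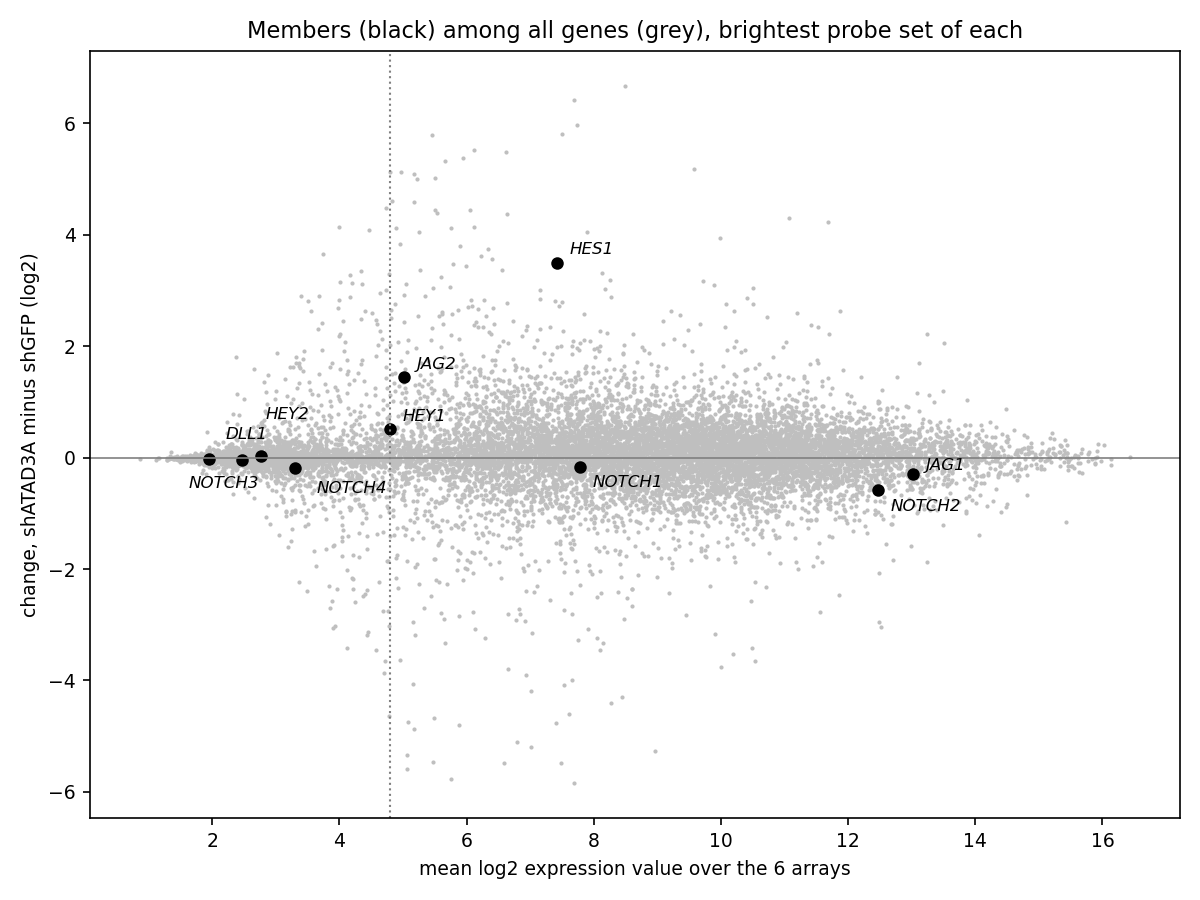
Change, shATAD3A minus shGFP on the log2 scale (vertical axis), against mean log2 expression over the 6 arrays (horizontal axis) for all 19775 genes in grey and the 10 members in black, on the brightest probe set of each. HES1 lies at 3.50, above nearly all genes, JAG1 and NOTCH2 lie at the bright end just below 0, and the dotted line at 4.8 is the upper edge of the low mode.

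Promoter sequences, from 250 bases before to 50 after the annotated start, were taken from RefSeq (GRCh38.p14) for 8 of the 10 members, to show what the genes that moved and those that did not have at their starts. HEY1, which rose, and DLL1, which lay in the low mode, were not among the 8. RBPJ binds sites with the core TGGGAA, which was searched on both strands together with CACNAG, a form of the N-box that HES proteins bind. TGGGAA occurs in 24.0% and CACNAG in 38.0% of all 35116 promoters of this length. Of the 8 members, 2 hold TGGGAA: HES1, which rose, and HEY2, which lay in the low mode. HES1 has the core at -84 and -70, both on the strand of the gene, and 4 CACNAG matches at -165, -132, -58 and 16, counted from the start with no 0. HEY2 has the core at -213 on the opposite strand, read there as TTCCCA, and at -3 on its own strand. At least 2 matches to TGGGAA occur in 3.8% of promoters. A pair on the same strand with starts at most 20 bases apart, a spacing set after seeing the HES1 sequence, occurs in 96 promoters (0.273%). CACNAG occurs in 5 of the 8 members: besides HES1, there are 2 matches in NOTCH1 and 1 each in NOTCH2, NOTCH3 and NOTCH4. JAG2, JAG1, NOTCH1, NOTCH2, NOTCH3 and NOTCH4 have no TGGGAA in this window. HES4, a further HES gene that rose and was added here after its values were seen, has 1, at -76. The 3 promoters that hold the core are printed with TGGGAA, or TTCCCA where it lies on the opposite strand, in capitals.
HES1 (chr3:194135898-194136197, plus strand): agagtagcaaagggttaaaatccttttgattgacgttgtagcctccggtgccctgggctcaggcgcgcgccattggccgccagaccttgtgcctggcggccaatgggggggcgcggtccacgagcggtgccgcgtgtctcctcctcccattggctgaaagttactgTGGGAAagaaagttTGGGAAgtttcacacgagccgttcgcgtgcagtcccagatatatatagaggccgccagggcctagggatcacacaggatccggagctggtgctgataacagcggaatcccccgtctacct
HES4 (chr1:1000048-1000347, minus strand): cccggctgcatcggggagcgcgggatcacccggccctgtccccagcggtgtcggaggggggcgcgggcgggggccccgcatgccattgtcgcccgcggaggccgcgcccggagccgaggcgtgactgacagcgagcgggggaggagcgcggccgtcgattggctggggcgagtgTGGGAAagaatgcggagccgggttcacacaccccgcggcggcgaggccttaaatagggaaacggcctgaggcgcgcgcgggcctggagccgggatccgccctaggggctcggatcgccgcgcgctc
HEY2 (chr6:125749382-125749681, plus strand): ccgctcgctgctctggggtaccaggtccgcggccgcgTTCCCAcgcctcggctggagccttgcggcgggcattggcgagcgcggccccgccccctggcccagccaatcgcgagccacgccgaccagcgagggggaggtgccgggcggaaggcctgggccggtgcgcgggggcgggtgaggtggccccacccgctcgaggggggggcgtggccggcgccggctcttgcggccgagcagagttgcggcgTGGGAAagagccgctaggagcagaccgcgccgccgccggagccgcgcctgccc
A match is a stretch of letters and shows neither binding nor use of the site, which these arrays do not measure.

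Of the other genes of the pathway, 70 were listed by role and 66 were measured; the other 4 were not analysed here. By limma over all genes, 21 of the 66 rose, 14 fell and 31 did not pass, with a median change of 0.05, against a median of -0.001 over all genes. The called share of 53.0% stands beside 33.6% of all genes and 62.0% of genes with a mean above the low mode (36.5% up, 25.5% down), and 50 of the 66 lay above it in at least 1 group. The split of calls depends on the scaling. It was 17 up and 16 down after quantile normalization, and 15 up and 28 down with arrays centred on the median of their genes, a setting that shifts the median of all genes to -0.104 and gives 3196 up and 9588 down over all genes, against 3895 up and 2749 down on the deposited scale.

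Of 9 genes of the nuclear complex that the receptor joins, 2 rose, 3 fell and 4 did not pass, with a median change of 0.10. Of all genes with a mean above the low mode, 36.5% rose and 25.5% fell. RBPJ, the DNA-binding protein of the pathway, read 11.87, 12.06 and 12.06 in shATAD3A cells, against 13.22, 13.01 and 13.07 in shGFP cells, and fell by 1.10 ± 0.077 (SE; limma adjusted p = 1.189e-04). A second RBPJ probe set above the low mode gave -1.38. Without s_at and x_at sets the change was -0.71 (limma adjusted p = 5.471e-04), on a probe set whose mean lay in the low mode. MAML3, a Mastermind coactivator, read 5.0, 4.78 and 4.76 in shATAD3A cells, against 6.80, 7.03 and 6.74 in shGFP cells, and fell by 2.01 ± 0.099 (SE; limma adjusted p = 3.184e-05). As the mean of all MAML3 probe sets, the others of which lay below the low mode's edge, the change was -0.70 (adjusted p = 6.749e-05). MAML2 ranged from 10.44 to 10.63 in shATAD3A and from 11.37 to 11.48 in shGFP cells, and fell by 0.88 (limma adjusted p = 1.040e-04). MAML1 rose by 0.22 (limma adjusted p = 0.00141; 0.12 with centred arrays), and for all 4 genes the groups did not overlap. KAT2A, a histone acetyltransferase, rose by 0.23, a call lost after quantile normalization (adjusted p = 0.0619), with centred arrays (adjusted p = 0.115) and without shATAD3A replicate 2 or 3 or shGFP replicate 1 (adjusted p = 0.0777, 0.0716 and 0.0657).

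Gamma-secretase, the protease that frees the receptor's intracellular domain, showed rises in 4 of its 5 measured subunits and no fall. Among all genes with a mean above the low mode, where these 5 lay, 36.5% rose and 25.5% fell. PSENEN ranged from 9.84 to 10.08 in shATAD3A and from 9.35 to 9.46 in shGFP cells, and rose by 0.55 (limma adjusted p = 0.00111). PSEN2, a catalytic subunit, rose by 0.54 (adjusted p = 0.00278), and by 0.36 on another probe set above the low mode. NCSTN, which takes up the substrate, rose by 0.51 (adjusted p = 0.00655). As means of all their probe sets, PSEN2 and NCSTN had smaller changes, 0.29 and 0.23 (adjusted p = 0.00202 and 0.00414). APH1B rose by 0.28 (limma adjusted p = 0.0453), a call lost after quantile normalization (0.18, adjusted p = 0.132), with centred arrays (0.18, adjusted p = 0.118) and without any 1 of the shATAD3A arrays or shGFP replicate 3 (adjusted p between 0.0614 and 0.131). APH1A read 10.1 ± 0.091 in shATAD3A and 10.1 ± 0.070 in shGFP cells (SD, n = 3), a change of -0.03 (limma adjusted p = 0.81).

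Steps before and after these cuts were mixed. Of 8 genes for glycosylation and maturation of the receptor, POFUT1, which adds O-fucose, rose by 0.75 (limma adjusted p = 5.274e-04; 0.40 as the mean of its probe sets), and POGLUT1, which adds O-glucose, fell by 0.45 (limma adjusted p = 4.033e-04). ADAM10 and ADAM17, the proteases of the first cut, had changes of -0.03 and -0.10 and did not pass (limma adjusted p = 0.673 and 0.0512); they were named for that role. Among 4 ubiquitin ligases that act on ligands, NEURL1B rose by 1.17 (limma adjusted p = 1.290e-04) and MIB1 fell by 0.77 (limma adjusted p = 8.138e-05), with 3 further MIB1 probe sets between -0.93 and -0.84. Of 5 other ligands, DNER fell by 0.83 (limma adjusted p = 0.00191) and the others did not pass; DLL3, DLL4 and DLK1, named after their values were seen, lay in the low mode.

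Of 10 corepressor genes measured, 4 rose and 2 fell. Beside this and the next list, 19.7% of all genes rose and 13.9% fell. Among genes with a mean above the low mode it was 36.5% and 25.5%. HDAC1, a histone deacetylase, rose by 0.47 (limma adjusted p = 3.129e-04) and KDM5A, a histone demethylase, by 0.45, while TLE3, a Groucho corepressor, fell by 0.50 (limma adjusted p = 0.00238). TLE1, of the same family, rose by 0.42 on its brightest probe set, with -0.30 and 0.31 on its others above the low mode and 0.09 as the mean of all (adjusted p = 0.0373). KDM5A gave 0.72 without s_at and x_at sets. Of 12 genes of receptor turnover and antagonists, 10 of them above the low mode in at least 1 group, 3 rose and 2 fell. DTX3, a Deltex, read 5.0, 5.38 and 5.23 in shATAD3A and 4.26, 4.16 and 4.11 in shGFP cells, a rise of 1.03 (limma adjusted p = 4.393e-04). Its shGFP values lay in the low mode. As the mean of all DTX3 probe sets the change was 0.19 (adjusted p = 0.00162). DTX3L rose by 0.22, and by 0.12 with centred arrays. NUMB, an inhibitor of Notch in asymmetric cell division, read 6.93, 7.13 and 6.66 in shATAD3A and 7.56, 7.77 and 7.46 in shGFP cells, a fall of 0.69 (limma adjusted p = 0.00985). The groups did not overlap for either gene. KDM5A, TLE1 and DTX3L were named after their values were seen.

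Other calls in these lists were less firm, and their genes too were named after their values were seen. LFNG, a Fringe glycosyltransferase, had a change of 0.32, lost after quantile normalization (adjusted p = 0.106) and without shATAD3A replicate 1 or 2 (adjusted p = 0.0653 and 0.0665). CTBP1, a corepressor, had 0.19, but -0.01 on the probe set left without s_at and x_at sets (adjusted p = 0.932). SPEN, a corepressor bound by RBPJ, had -0.33, but -0.0018 as the mean of its probe sets (adjusted p = 0.99). FBXW7, which marks the intracellular domain for breakdown, had -0.25, lost without any 1 array other than shATAD3A replicate 2 or shGFP replicate 1 (adjusted p between 0.0528 and 0.0672). CCNC had 0.17, lost with centred arrays (adjusted p = 0.0932).

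The other known targets did not move as one. IL7R, a cytokine receptor and a Notch target in T cells, read 11.21, 11.23 and 11.26 in shATAD3A cells, against 8.98, 8.87 and 8.81 in shGFP cells, a rise of 2.35 ± 0.050 (SE; limma adjusted p = 2.107e-06). HES4 read 7.78, 7.98 and 7.77 in shATAD3A cells, against 6.30, 6.28 and 6.56 in shGFP cells, a rise of 1.46 ± 0.096 (SE; limma adjusted p = 9.076e-05). BCL2, an inhibitor of cell death, rose by 0.62, and by 0.12 as the mean of its probe sets (adjusted p = 0.00936). HES2 and HEYL lay in the low mode by their group means, with changes of 0.52 and 0.27, or 0.22 and 0.13 as means of their probe sets. The HES2 call was lost without any 1 array other than shATAD3A replicate 1 (adjusted p between 0.0822 and 0.132), and the HEYL call without shGFP replicate 1 or 2 (adjusted p = 0.0568 and 0.066). CDKN1A, an inhibitor of the cell cycle, read 8.60, 8.58 and 8.57 in shATAD3A cells, against 10.10, 10.06 and 10.04 in shGFP cells, and fell by 1.48 ± 0.030 (SE; limma adjusted p = 1.739e-06). SOX9, CCND1 (cyclin D1) and SNAI2 (Slug) fell by 1.16, 0.78 and 0.65. HES5, HES6 and HES7 lay in the low mode and did not pass, nor did EPHB4. Of these 13 targets, 5 rose, 4 fell and 4 did not pass. Over all genes, 19.7% rose and 13.9% fell, and over those with a mean above the low mode 36.5% and 25.5%. Of these targets, all but IL7R and CDKN1A were named after their values were seen.

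**Figure D4:**
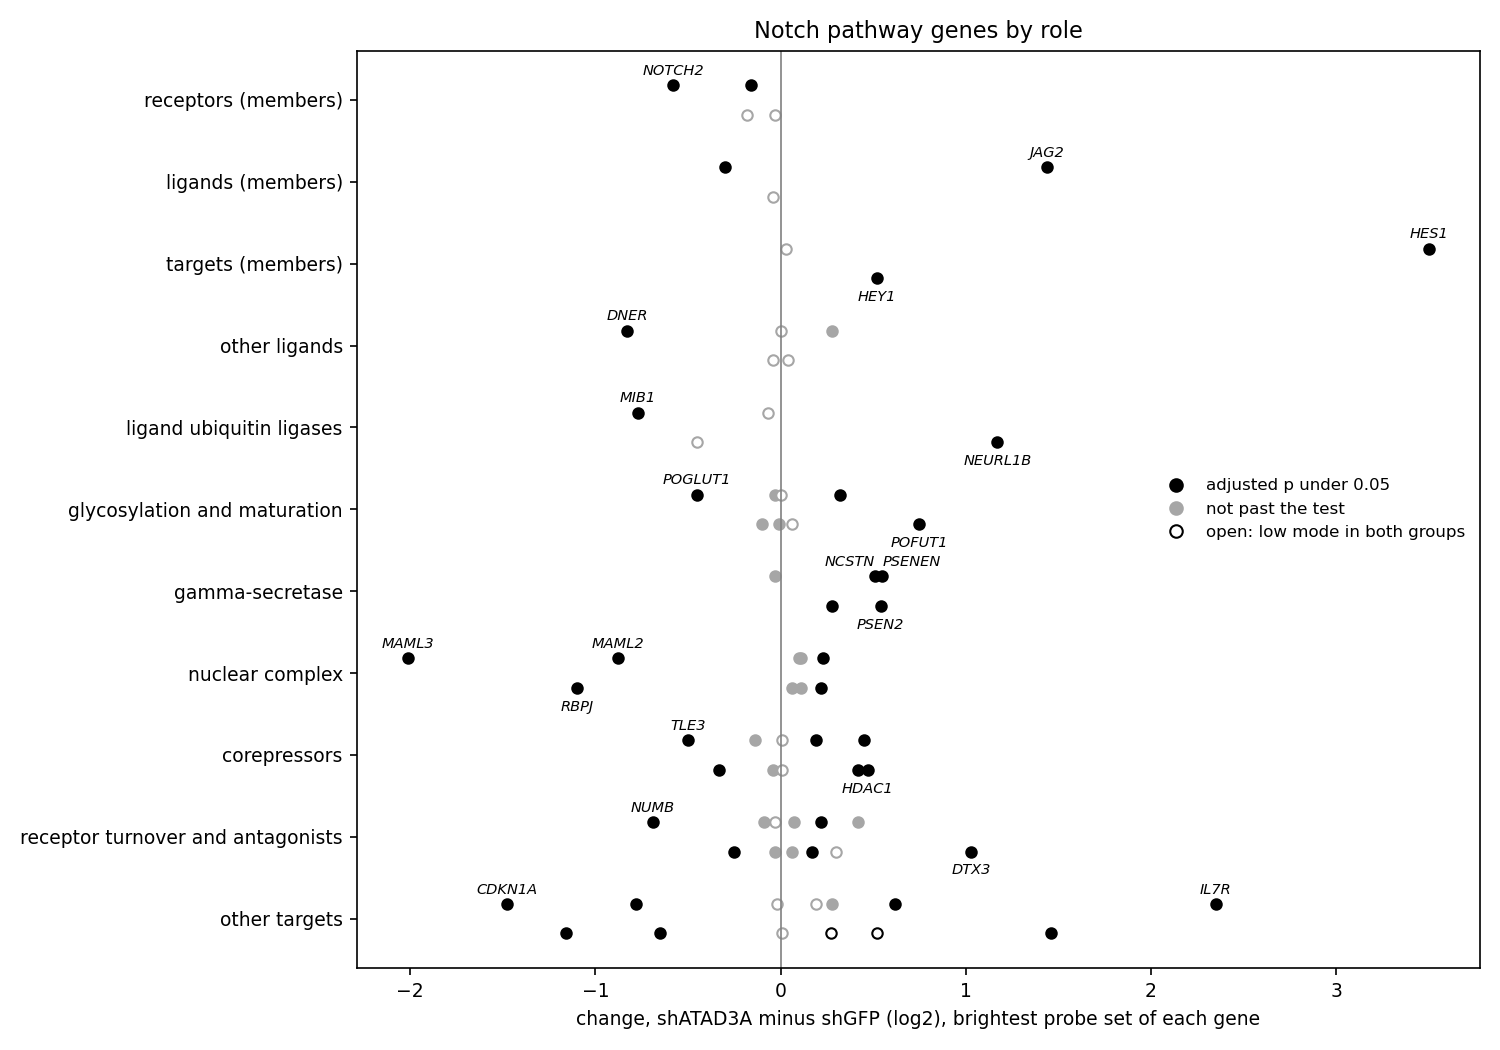
Change, shATAD3A minus shGFP on the log2 scale (horizontal axis), of the 10 members and 66 other pathway genes on the brightest probe set of each, in rows by role; black marks an adjusted p under 0.05 and open circles mark genes in the low mode in both groups. HES1 lies farthest right at 3.50 and MAML3 farthest left at -2.01.

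Genes near a pathway gene on its chromosome shared its direction in some cases and went the other way in others. The median change of up to 25 genes on either side, among genes with a mean above the low mode, was 0.09 around HES1, with 17 of 50 neighbours up and 13 down. Over all genes with such a mean, 36.5% rose and 25.5% fell. Around NOTCH2 the median was 0.06, with 19 up and 13 down. Around JAG1 and NOTCH1, whose own changes were negative, it was 0.39 (33 of 50 up, 2 down) and 0.24 (27 up, 3 down). Around JAG2 and HEY1, which rose, it was 0.27 over 29 neighbours and 0.10 over 50. NOTCH3 and NOTCH4, in the low mode, lay among neighbours with medians of -0.49 (41 of 50 down) and -0.47 (38 down), and DLL1 and HEY2 beside medians of -0.02 each. RBPJ, MAML2 and DNER fell beside medians of 0.11, -0.05 and 0.35, and ATAD3A fell beside 0.28. MAML3, MIB1 and CDKN1A fell beside medians of -0.43, -0.41 and -0.38, with 36, 35 and 35 of 50 neighbours down. DTX3 and IL7R rose beside medians of 0.49 and 0.33. Around the other pathway genes named by rule, the median lay between 0.03 and 0.19. The part of these neighbourhoods in the changes was not tested.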

How the data were processed

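Biotin-labelled material from 250 ng total RNA went onto Affymetrix human whole-genome arrays, per the labels' protocols. The deposited values, 1 column per array, are on a log2 scale as read from their range (0.826 to 16.6); the summary method is not given in the sources used here, and the program Partek appears with no version per the submitters' processing notes. The medians of the arrays spanned 3.16 to 3.23. The number of arrays limits the precision, and detection calls were not used. Over probe sets, which are not independent, arrays of a group correlated at 0.9986 to 0.9991 and arrays of different groups at 0.989 to 0.9898; the closest pair shared 0.0165% of values, so none was counted as a copy.

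Of 54675 probe sets, 62 controls were set aside, and GEO's platform annotation (2016) gave 41091 of the rest a single symbol, 1801 several and 11721 none. Symbols were checked against the GRCh38.p14 gene table through Entrez IDs, which updated 0. For gene counts the probe set with the highest mean was kept. All 54613 probe sets, and apart from them 19775 genes, were fitted with limma 3.58.1 in R 4.3.3 (lmFit and eBayes, two-sided, no covariates, no filter) with Benjamini-Hochberg adjustment at 0.05. The fit was also run on simulated data with far fewer changed probe sets than were called in the real data, and no result here rests on that run. All member probe sets were named or counted; of other pathway genes, every gamma-secretase gene, RBPJ and MAML1 to MAML3 were named, with the largest called change in each direction per role list; further ones were named for their role or after their values were seen, as the text says. The members and lists were chosen with earlier results of these data known.

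Alternatives covered normalization, a filter on dim probe sets, which probe set stands for a gene, the variance prior, array weights, the threshold, the replicate number as a block and each array left out.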

Additional observations from a re-analysis of the deposited data

How the results depend on the processing

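Of the 27 member probe sets, between 9 (adjusted p under 0.01) and 13 (quantile normalization, array weights) were called, and 10 to 12 with 1 array left out. By gene the count of 6 fell to 3 at an adjusted p under 0.01, and it was 4 to 6 with 1 array left out. Without s_at and x_at probe sets the count fell to 1 of the 6 genes still measured. NOTCH2, NOTCH3, JAG1 and DLL1 then had no probe set. HES1 and HEY1 were then read on probe sets in the low mode, which changed by -0.05 and 0.04 and were not called over all probe sets. For the other pathway genes the count of 35 lay between 26 and 43, and between 32 and 33 with 1 array left out. The change of ATAD3A was -0.49, not called at 0.01, and ran from -0.56 to -0.37 with 1 array left out. Over 51 single results, 774 values under alternatives were compared; 700 kept direction and call, 70 lost the call, 2 gained it (NOTCH1 on its probe set, after quantile normalization and without shGFP replicate 3) and 2 turned their sign. APH1A, not called, ran from -0.09 to 0.004 with 1 array left out, and CTBP1 was -0.01 without s_at and x_at probe sets, since another probe set then stood for it. Of the members, only NOTCH1 entered these comparisons by gene. NOTCH2, JAG1, JAG2, HES1 and HEY1 entered as single probe sets, so a swap of the probe set that stands for them is not counted. Of the 13 low-mode probe sets, array weights called 1, of NOTCH4. The cause of the other differences was not tested. With arrays centred on the median of their genes, 12784 genes were called in place of 6644.

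The replicate numbers did not pair the arrays: the deviations of same-numbered arrays correlated at -0.213, -0.106 and 0.0379 over probe sets, and 1 of 6 arrays correlated best with its own number. With the number as a replicate block, 11 member probe sets (4 up, 7 down), 5 members by gene and 33 other pathway genes were called, and ATAD3A changed by -0.49; over all probe sets it gave 10773 calls, against 12240 without it. JAG2 on its brightest probe set lost its call with the block (adjusted p = 0.0529). Probe sets in the low mode have little signal; NOTCH3, NOTCH4, DLL1 and HEY2 were not called there, though a JAG2 probe set was.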
